A study of Mus musculus with 4 samples.

Results

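Short clusters of dense CCGG sites, which resemble small CpG islands, were described in mouse embryonic stem cells sorted by reporter fluorescence. A CCGG position was called dense when at least 10 CCGG positions, itself included, lay within 500 bp on either side. Dense positions no more than 500 bp apart were joined, and the runs on the 19 autosomes that spanned under 500 bp, single positions included, were the members. The rule used positions only and no tag. It gave 3872 short clusters among 9856 clusters on all chromosomes and 9433 on the autosomes (41.0% of the autosomal clusters). They held 26093 of the 130174 dense positions, out of 1594137 positions in all. The longer autosomal clusters numbered 5561, of which 5246 spanned 500 to under 1500 bp and 315 spanned 1500 bp or more.

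The cells were MC1-ZE7, a line of 129S6/SvEvTac origin at passage 31 that carries the fluorescent protein Emerald under the Zscan4c promoter. Both groups came from this line by cell sorting: Emerald-high cells, in which the Zscan4c reporter was bright, and Emerald-negative cells, in which it was not. The reporter reads 1 promoter, and a sorted fraction of 1 line was measured without replicate, so differences between groups are differences between libraries. Each group had 1 HpaII and 1 MspI library, with totals in the file headers of 5662614 and 9372711 tags for Emerald-high and of 9535691 and 9307616 tags for Emerald-negative. The short clusters took 2.75% of the HpaII and 0.847% of the MspI tags of the Emerald-high fraction, against 3.72% of the HpaII and 0.718% of the MspI tags of the Emerald-negative fraction. Marker genes of the cell type cannot be checked in DNA cut data of this kind.

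CpG islands are stretches of mammalian DNA in which CpG has not been lost through deamination of methylated cytosine, and most of them lie at gene promoters and stay free of methylation in nearly all cells. HpaII cuts CCGG only where the central CG is unmethylated, whereas MspI cuts it in either state, so MspI gauges how readily a site yields tags and HpaII over MspI gauges how much of it is unmethylated. Some promoters of interspersed L1 elements are also rich in CpG, and those are methylated in most cells. Values are given on 2 scales. The pooled level is the log2 of HpaII over MspI tags, each as a share of its library's total. The cutting score is an angle: the arctangent of the HpaII share over the MspI share, as a fraction of a right angle, times 100. A score of 50 means equal shares, and a higher score means more cutting by HpaII.

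The sequences below show what such a cluster looks like at a gene start. They are RefSeq promoters of the GRCm38.p6 build, from 250 bases before to 50 bases after the start, on the gene's strand, with each CCGG in capitals. Each was tied to its short cluster by the spacing of its CCGG, as described in the processing. They were chosen to show the maintenance methyltransferase gene, its partner, a divergent gene pair, and the lowest difference and lowest Emerald-negative score among the covered genes of the lists given further on.
Dnmt1 (cluster chr9:20756777-20757084, mm9, minus strand): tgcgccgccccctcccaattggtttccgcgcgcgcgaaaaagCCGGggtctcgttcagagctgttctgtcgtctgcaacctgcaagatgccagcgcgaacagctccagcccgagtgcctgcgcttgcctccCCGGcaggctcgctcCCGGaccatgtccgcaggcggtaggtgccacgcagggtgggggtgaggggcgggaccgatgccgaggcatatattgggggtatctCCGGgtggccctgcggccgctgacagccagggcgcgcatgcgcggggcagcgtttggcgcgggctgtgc
Uhrf1 (cluster chr17:56443476-56443649, mm9, plus strand): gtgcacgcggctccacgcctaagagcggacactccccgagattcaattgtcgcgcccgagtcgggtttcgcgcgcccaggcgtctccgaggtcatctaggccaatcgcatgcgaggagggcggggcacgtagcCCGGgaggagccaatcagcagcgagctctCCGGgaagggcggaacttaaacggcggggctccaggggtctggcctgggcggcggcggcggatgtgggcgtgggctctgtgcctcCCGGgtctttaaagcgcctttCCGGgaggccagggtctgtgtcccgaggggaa
Hspe1 (cluster chr1:55144593-55145042, mm9, plus strand): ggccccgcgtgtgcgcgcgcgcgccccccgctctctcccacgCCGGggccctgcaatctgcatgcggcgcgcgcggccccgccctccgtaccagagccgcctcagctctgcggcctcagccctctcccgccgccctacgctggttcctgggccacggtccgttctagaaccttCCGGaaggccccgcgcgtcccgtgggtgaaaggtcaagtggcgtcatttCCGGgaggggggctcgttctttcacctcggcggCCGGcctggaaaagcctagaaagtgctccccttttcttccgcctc
Batf3 (cluster chr1:192921962-192922437, mm9, plus strand): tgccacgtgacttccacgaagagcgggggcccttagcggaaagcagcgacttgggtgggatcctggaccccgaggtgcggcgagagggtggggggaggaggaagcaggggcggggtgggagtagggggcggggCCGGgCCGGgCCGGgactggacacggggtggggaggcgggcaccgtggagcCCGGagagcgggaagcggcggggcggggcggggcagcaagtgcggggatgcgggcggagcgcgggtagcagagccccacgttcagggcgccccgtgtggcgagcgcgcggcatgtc
Ncaph2 (cluster chr15:89186087-89186312, mm9, plus strand): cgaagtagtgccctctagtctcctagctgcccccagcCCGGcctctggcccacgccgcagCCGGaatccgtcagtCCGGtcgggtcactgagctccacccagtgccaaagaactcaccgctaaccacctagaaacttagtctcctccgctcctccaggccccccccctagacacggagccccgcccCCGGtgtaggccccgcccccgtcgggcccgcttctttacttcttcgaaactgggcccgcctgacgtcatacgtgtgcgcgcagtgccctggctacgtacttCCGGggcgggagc
The first 4 of these promoters held 4 CCGG each, and that of Ncaph2 held 5.

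The short clusters were small and mostly far from other clusters. The median short cluster held 7 dense sites (quartiles 3 and 10, highest 34), 369 were single sites, and those with 2 or more sites had a median span of 379 bp. The nearest other cluster was a median of 62.2 kb away, with 153 short clusters within 2 kb of another and 1397 farther than 100 kb from any. A cluster's own score was used only where it had at least 10 tags in each MspI library. That left 2074 of the 3872 short clusters (53.6%), against 4320 of the 5561 longer ones (77.7%).

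HpaII cut most of the covered short clusters in both groups. Their scores had a median of 82.1 (quartiles 78.7 and 84.8) in the Emerald-high fraction and 88.7 (quartiles 86.1 and 90.6) in the Emerald-negative fraction. Scores above 80 were reached by 66.5% of the short clusters in the Emerald-high fraction (95% exact interval 64.4 to 68.5) and by 91.9% in the Emerald-negative fraction (90.7 to 93.1). The low end was thin: 42 short clusters (2.03%) scored under 20 in the Emerald-high fraction and 50 (2.41%) in the Emerald-negative fraction. Among longer clusters those shares were 0.625% in the Emerald-high fraction and 0.718% in the Emerald-negative fraction, and for both groups the exact intervals of short and longer clusters did not overlap (1.46 to 2.73 against 0.412 to 0.908 in the Emerald-high fraction, and 1.79 to 3.17 against 0.488 to 1.02 in the Emerald-negative fraction). The exact intervals treat clusters as independent draws, and the Poisson intervals given below cover the counting error of tags only. Neither covers variation between samples, and tags without molecular identifiers are not independent molecules.

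**Figure D1:**
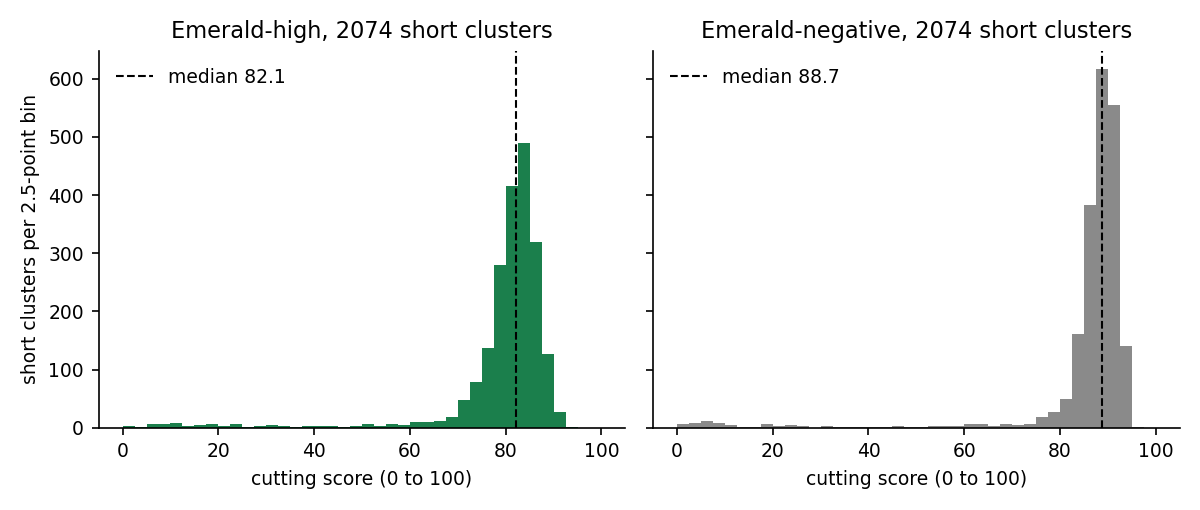
Cutting scores of the 2074 covered short clusters in the Emerald-high (left) and Emerald-negative (right) cells, as clusters per 2.5-point bin, with the median as a dashed line. Both fractions form a single high peak with a sparse tail of low scores, and the median is 82.1 in the Emerald-high and 88.7 in the Emerald-negative fraction.

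Summed over all 3872 short clusters, the pooled level was 1.70 in the Emerald-high fraction and 2.37 in the Emerald-negative fraction, a difference of -0.67 (95% Poisson interval -0.69 to -0.66). The HpaII share was lower in the Emerald-high fraction by a log2 difference of -0.43, and the MspI share, which does not depend on methylation, was higher by 0.24. Every autosome showed both: the HpaII/MspI difference lay between -0.74 on chromosome 16 and -0.53 on chromosome 14, with a mean of -0.67 ± 0.05 (SD over the 19 autosomes, which share the libraries). The HpaII difference was below 0 and the MspI difference above 0 on 19 of 19. The size of the difference rests on the scaling to library totals. All autosomal clusters together differed by -0.72, so that relative to the tags of all autosomal dense sites, of which short clusters are a part, short clusters stood at 0.048, a difference of the other sign.

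**Figure D2:**
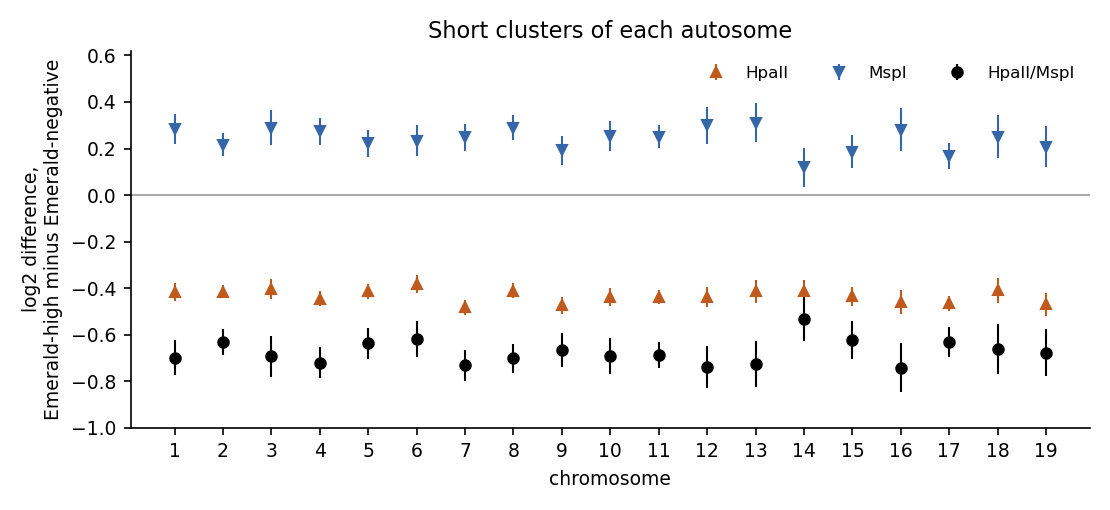
Log2 differences, Emerald-high minus Emerald-negative, of the tags of short clusters on each autosome, for the HpaII libraries, the MspI libraries and HpaII/MspI, with 95% Poisson intervals. The HpaII and HpaII/MspI points lie below 0 and the MspI points above 0 on all 19 autosomes.

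Cluster by cluster, 1848 of the 2074 covered short clusters (89.1%) had the lower HpaII/MspI ratio in the Emerald-high fraction, with a median difference of -0.64 and quartiles of -0.97 and -0.31. The SD of the difference among clusters was 0.56, against 0.50 from counting error alone. For the HpaII libraries the SD was 0.38 against 0.29, and for the MspI libraries 0.41 against 0.41. In the 148 clusters with at least 50 tags in each MspI library the SD was 0.50 against 0.36 from counting for the difference, 0.52 against 0.26 for HpaII and 0.25 against 0.25 for MspI. A cluster was called when Fisher's exact test between the libraries gave an adjusted p (Benjamini-Hochberg, over 6484 covered clusters of every length) under 0.05 with a change of at least 2-fold. By this rule 331 of 2074 short clusters (16.0%) were lower in the Emerald-high fraction, where 20.4% of all covered clusters were, and 5 were higher (0.241%), where 0.17% of all were. Of longer clusters, 982 of 4320 (22.7%) were lower and 5 higher. At an unadjusted p under 0.05, 640 of the 2074 short clusters were lower and 9 higher. Of the 4320 longer clusters 2509 were lower and 11 higher at that limit. The direction was thus the same, with a smaller share of short clusters lower. Of the 331 called lower, 330 had the higher MspI share in the Emerald-high fraction, against 1452 of all 2074 covered short clusters. The median MspI difference was 0.70 in the called clusters and 0.22 in all covered short clusters. For HpaII the medians were -0.62 in the called clusters and -0.43 in all. HpaII and MspI tags both enter the call, so these shifts are partly set by the choice of called clusters. The part of the MspI libraries in these calls was not tested.

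Scaled to autosomal dense sites, 0 short clusters were called lower (36 at an unadjusted p under 0.05), where 0.0463% of all covered clusters were. On that scale 7 were called higher (108 unadjusted), where 0.216% of all were. Both unadjusted counts are of 2074 short clusters. Of the 4320 longer clusters, 144 were lower and 183 higher at the same unadjusted limit. By the test on HpaII libraries alone, an exact binomial test against library totals, 45 short clusters were lower, where 1.17% of all covered clusters were, and 14 higher, where 0.416% of all were. The calls say that 2 libraries differed and have no replicate check.

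Short clusters were open to naming outside chromosome 18, with whole tags at every site and at least 20 tags in each MspI library. Their MspI shares also had to lie within 0.5 of each other on the log2 scale, which left 937. Clusters of other lengths were not filtered this way, so calls among the 937 have no share over all clusters to be read against. Of the 937, 58 were called lower and 2 higher. The larger of the 2 was at chr10:8420645-8421123 (mm9), a cluster of 11 dense sites 182 kb from the next. It had 18 HpaII and 51 MspI tags in the Emerald-high fraction and 6 HpaII and 46 MspI tags in the Emerald-negative fraction. Its score was 33.7 in the Emerald-high fraction against 8.06 in the Emerald-negative fraction, a log2 difference of 2.06 (SE 0.70, Fisher exact adjusted p = 0.0127), and it was called on both scalings. At chr8:125951609-125952090, with 3 dense sites, there were 16 HpaII and 244 MspI tags in the Emerald-high fraction, against 8 HpaII and 209 MspI tags in the Emerald-negative fraction. Both scores were low there, at 6.88 in the Emerald-high and 2.38 in the Emerald-negative fraction (difference 1.46, SE 0.61, Fisher exact adjusted p = 0.0487), and the call was lost when scaled to autosomal dense sites. The other 3 called higher fell outside the naming rule and were singled out after their values were seen. They lay at chr16:57264552-57264842, chr5:114245488-114245670 and chr6:4706210-4706288, and scored 23.9, 41.9 and 30.9 in the Emerald-high fraction against 1.88, 8.65 and 3.88 in the Emerald-negative fraction. In all 3 the MspI share was lower in the Emerald-high fraction, by log2 differences of -0.64, -0.73 and -0.66. All 5 thus scored at most 8.65 in the Emerald-negative fraction and at most 41.9 in the Emerald-high fraction.

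The 5 largest falls with little change in MspI were close in size. At chr15:81978020-81978479 there were 70 HpaII and 36 MspI tags in the Emerald-high fraction, against 233 HpaII and 25 MspI tags in the Emerald-negative fraction, with scores of 80.8 in the Emerald-high and 93.0 in the Emerald-negative fraction. The difference was -1.47 (SE 0.42, Fisher exact adjusted p = 0.00402). The clusters at chr19:46392370-46392862, chr11:119464526-119464872, chr8:106966544-106966768 and chr2:25258619-25259023 fell by 1.45, 1.40, 1.39 and 1.39 on the log2 scale. Each still scored 66.1 or more in the Emerald-high fraction, so that HpaII tags remained in excess over MspI tags there. None of the 5 was called when scaled to autosomal dense sites.

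Among the same 937 clusters open to naming, the deepest and those with the lowest and highest Emerald-negative scores were described. The one with most MspI tags, chr17:39984869-39985351, had 3116 HpaII and 2096 MspI tags in the Emerald-high fraction, against 7785 HpaII and 1887 MspI tags in the Emerald-negative fraction. Its scores were 75.4 in the Emerald-high and 84.5 in the Emerald-negative fraction (difference -0.71, SE 0.055). It lay 1.06 kb from the next cluster. With 4 dense sites, it was far above the short clusters' average of 2.80 MspI tags per site and library. Whether its tags came from more than 1 copy of the sequence was not tested. The other 4 deepest of the 937 were the low-scoring cluster of chromosome 8 described above, chr11:53632554-53633012 (scores 23.6 in the Emerald-high and 33.2 in the Emerald-negative fraction), chr8:128258239-128258684 (scores 82.7 in the Emerald-high and 88.8 in the Emerald-negative fraction) and chr8:98788809-98789206 (scores 10.4 in the Emerald-high and 7.06 in the Emerald-negative fraction). The lowest Emerald-negative scores among the 937 belonged to the same chromosome 8 cluster and to chr6:122950245-122950533, chr6:91938597-91938707, chr12:30687775-30687928 and chr8:98788809-98789206. In these 5, HpaII tags numbered 2 to 16 in the Emerald-high fraction and 2 to 13 in the Emerald-negative fraction. The highest Emerald-negative score among the 937 was at chr19:32786404-32786893, which holds the promoter of Atad1, an AAA ATPase that removes mislocalized membrane proteins. It had 144 HpaII and 48 MspI tags in the Emerald-high fraction, against 347 HpaII and 34 MspI tags in the Emerald-negative fraction (scores 87.3 in the Emerald-high and 93.6 in the Emerald-negative fraction, Fisher exact adjusted p = 0.0203, under 2-fold and so not called). The other 4 of the highest, chr4:133801260-133801655, chr1:33871023-33871508, chr15:81978020-81978479 and chr11:100573450-100573805, scored 80.8 to 88.0 in the Emerald-high fraction and 92.9 to 93.3 in the Emerald-negative fraction.

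Rarely cut short clusters moved the other way. Of the 50 that scored under 20 in the Emerald-negative fraction, 42 scored higher in the Emerald-high fraction, and 38 scored under 20 in both. That count uses the values that chose the clusters. To avoid this, clusters were sorted by their Emerald-negative score from the tags of 1 of the 2 deposited parts of each count, and the group difference came from its other part. Sorted by the first part, the 66 short clusters under 20 had a pooled difference of 0.47 (95% Poisson interval 0.19 to 0.74), against -0.53 for the 222 between 20 and 80 and -0.68 for the 1905 above 80. Sorted by the second part, the differences were 0.54 in 57 clusters (0.30 to 0.77), -0.59 in 168 and -0.69 in 1966. For HpaII alone the differences of short clusters under 20 were 0.75 and 0.81. Longer clusters under 20 moved the same way. Their pooled differences were 0.55 (0.33 to 0.78) sorted by the first part and 0.94 (0.68 to 1.19) by the second. Both parts come from the same libraries, so they are separate counts and not replicates. Of the 50, 28 held tags shared between sites, against 147 of all 2074 covered short clusters. Of the same 50, 23 lay over 100 kb from another cluster, against 569 of the 2074, and 0 held a placed promoter. The part of shared tags in the difference was not tested.

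Length and density of sites were compared next. The pooled level of short clusters was lower than that of longer clusters by a log2 difference of -0.063 in the Emerald-high fraction (95% Poisson interval -0.077 to -0.049, below 0 on 16 of 19 autosomes) and by -0.12 in the Emerald-negative fraction (-0.14 to -0.11, on 18 of 19). The difference between the groups was thus smaller in short clusters, by 0.061 (0.042 to 0.080, above 0 on 16 of 19). Against clusters of 500 to under 1500 bp alone, it was 0.057 (0.037 to 0.077). Against clusters of 1500 bp or more, the pooled level of short clusters was higher in the Emerald-high fraction, by 0.055 (0.036 to 0.075). In the Emerald-negative fraction it was lower, by -0.021 (-0.040 to -0.0016). The difference was below 0 on 14 of 19 autosomes in the Emerald-high and on 18 of 19 in the Emerald-negative fraction. Single autosomes ran from -0.27 to 1.72 (SD 0.43) in the Emerald-high and from -0.34 to 2.00 (SD 0.51) in the Emerald-negative fraction, a spread that the Poisson intervals do not cover. Dense sites of short clusters have fewer CCGG around them, with a median of 11 within 500 bp against 15 in clusters of 500 to under 1500 bp. Among sites with 10 to 14 CCGG, short and longer clusters differed by -0.085 in the Emerald-high and -0.090 in the Emerald-negative fraction, and their group difference by 0.0045 (-0.016 to 0.025, above 0 on 9 and below 0 on 10 autosomes). At 10 CCGG the group difference was -0.65 in short clusters (-0.67 to -0.63) and -0.59 in longer ones (-0.62 to -0.56), and at 11 it was -0.69 in short and -0.63 in longer clusters, the reverse of the order over all sites. From 12 to 14 CCGG the intervals overlapped. In short clusters it reached -0.77 at 15 or more CCGG, where the pooled levels were 1.39 in the Emerald-high and 2.17 in the Emerald-negative fraction, the lowest among short-cluster sites of any density.

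**Figure D3:**
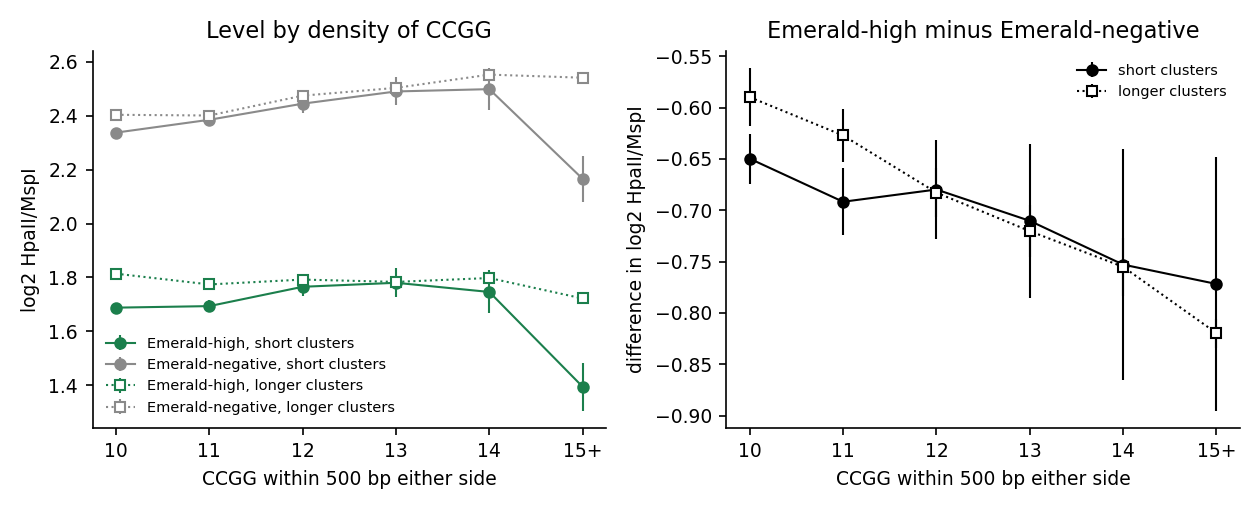
Pooled log2 HpaII/MspI of dense sites (left) and its difference between Emerald-high and Emerald-negative (right), by the number of CCGG within 500 bp either side, for short clusters (filled) and longer ones (open), with 95% Poisson intervals. The difference falls from -0.65 at 10 CCGG to -0.77 at 15 or more in short clusters, and from -0.59 to -0.82 in longer ones.

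Within the short clusters, single sites stood apart. Their pooled difference was -0.43 (-0.54 to -0.33), against -0.68 for those spanning 250 to under 500 bp, and the 40 covered ones had median scores of 83.4 in the Emerald-high and 82.5 in the Emerald-negative fraction. At the rule's limits, the 988 clusters of 450 to under 500 bp had a difference of -0.68 and the 655 clusters of 500 to under 550 bp one of -0.73. Sites with 9 CCGG, just outside the rule, had -0.60, and those with 10 had -0.62. Short clusters over 100 kb from another had a pooled level of 1.64 in the Emerald-high and 2.28 in the Emerald-negative fraction, a difference of -0.64. Those 10 to 100 kb away had 1.73 in the Emerald-high and 2.41 in the Emerald-negative fraction, a difference of -0.68.

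The sites around short clusters lost the high level and the group difference at different distances. Inside the cluster the pooled level was 1.70 in the Emerald-high and 2.37 in the Emerald-negative fraction. It was still 1.72 in the Emerald-high fraction 250 to 500 bp outside, where the Emerald-negative fraction had 2.21, and the difference had shrunk to -0.49. At 500 to 1000 bp the levels were 1.53 in the Emerald-high and 1.82 in the Emerald-negative fraction. At 1000 to 2000 bp they were 0.89 in the Emerald-high and 1.05 in the Emerald-negative fraction. At 2000 to 5000 bp they were 0.40 in the Emerald-high and 0.44 in the Emerald-negative fraction. Beyond 5000 bp the sign turned, to differences of 0.029 (0.014 to 0.043) at 5000 to 10000 bp and 0.052 (0.041 to 0.063) at 10000 to 20000 bp. These signs rest on the scaling to library totals, where a lower HpaII share at some sites leaves a higher share to others. The density of CCGG fell along the same way, with a median of 9 within 500 bp of a site just outside the cluster and of 2 beyond 1000 bp. Sites with 5 to 9 CCGG had a difference of -0.54 (-0.56 to -0.53) within 500 bp of a short cluster and of -0.43 (-0.44 to -0.43) over 2000 bp from any cluster. Their levels were 1.72 in the Emerald-high and 2.27 in the Emerald-negative fraction near a short cluster. Far from any cluster they were 1.03 in the Emerald-high and 1.47 in the Emerald-negative fraction.

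**Figure D4:**
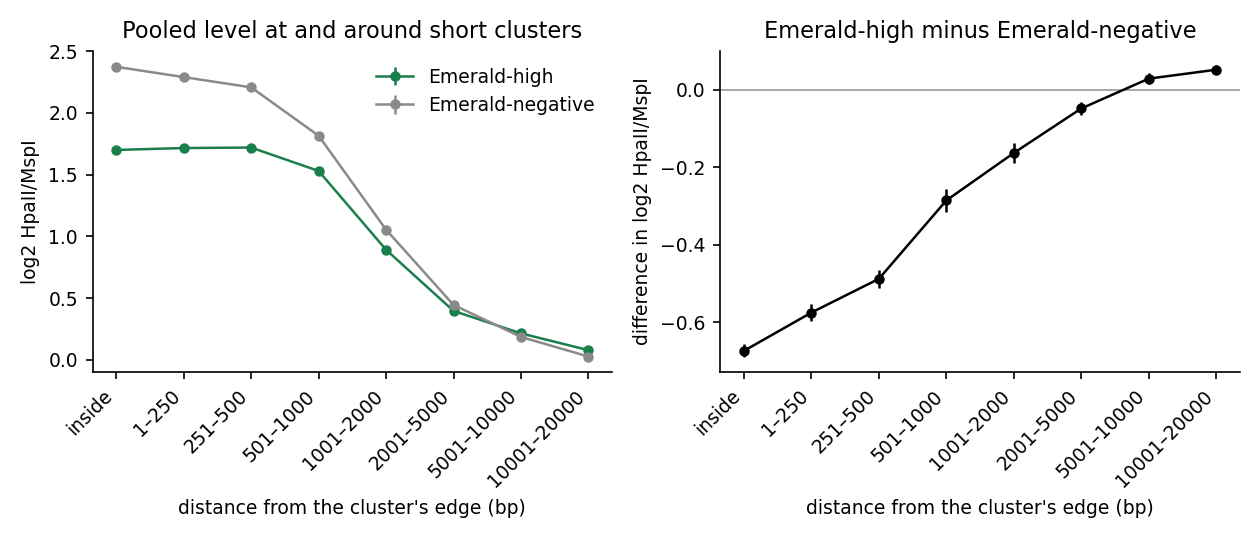
Pooled log2 HpaII/MspI of sites inside and around short clusters by distance from the cluster's edge, in the Emerald-high and Emerald-negative cells (left), and the difference between them (right), with 95% Poisson intervals. Levels fall below 0.5 beyond 2000 bp, while the difference runs from -0.67 inside to 0.052 at 10000 to 20000 bp.

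Some short clusters shared part of their spacing of sites with others. Of the 2806 short clusters with at least 4 sites, 819 (29.2%) shared a run of 3 neighbouring gaps with 4 or more other clusters, read in either direction, here called repeat-spaced. These were nearly empty of tags: 558 of the 819 (68.1%, 95% exact interval 64.8 to 71.3) had no MspI tag in either library, against 20 of the other 1987 (1.01%, 0.616 to 1.55). They made up 558 of the 578 short clusters of 4 or more sites without an MspI tag (96.5%). MspI tags per site, averaged over both MspI libraries, were 0.346 in repeat-spaced and 3.82 in other short clusters. Repeat-spaced clusters were also remote, with 63.0% over 100 kb from another cluster against 28.0% of the others. Only 54 of them were covered, with median scores of 74.8 in the Emerald-high and 81.6 in the Emerald-negative fraction, against medians of 82.2 in the Emerald-high and 89.0 in the Emerald-negative fraction in the others. Their pooled difference was -0.41 (-0.51 to -0.32), against -0.69 (-0.70 to -0.67) in the others. Repeat spacing was not particular to short clusters: 1451 of the 5561 longer clusters (26.1%) had it. Of these 1451, 60.9% had no MspI tag in either library and 62.6% lay over 100 kb from another cluster. In the other longer clusters these shares were 0.195% and 35.5%.

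The commonest whole spacing had 4 sites with gaps of 52, 156 and 52 bp, and was found in 41 short clusters on 17 chromosomes (for example chr1:30099567-30099827). Of these 41, 38 had no tag in any library and 0 were covered. The second had 11 sites in 425 bp with gaps of 51, 19, 5, 11, 10, 167, 19, 5, 21 and 117 bp, in 34 clusters on 15 chromosomes (chr1:13726974-13727399). The third had 10 sites in 308 bp (chr1:23313803-23314111), in 26 clusters, and its gaps of 21, 5, 19, 167, 10, 11, 5, 19 and 51 bp are those of the second without the last, read backwards. The fourth, with 6 sites in 468 bp (chr3:6301954-6302422), extended the first by a further pair of gaps of 156 and 52 bp and was found in 23 clusters. The fifth, with 13 sites in 425 bp (chr1:166672713-166673138), was found in 18. Distances between any 2 sites of a cluster peaked accordingly. A distance of 21 bp occurred in 75.7% of the repeat-spaced clusters and in 12.9% of the others. Among distances of 150 bp or more the most frequent was 212 bp, which occurred in 462 of the 819 repeat-spaced clusters (56.4%) and in 7.30% of the others. L1 promoters of the mouse are built of tandem monomers, as background. The identity of these clusters was not tested, as no sequence of the mm9 build was used here.

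**Figure D5:**
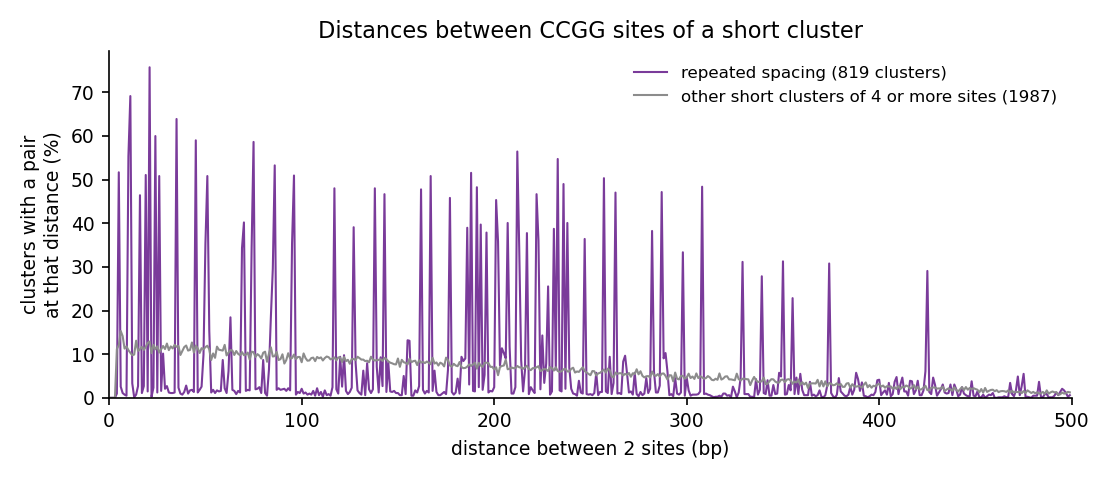
Share of short clusters of 4 or more sites with a pair of CCGG at each distance, for the 819 repeat-spaced clusters and the other 1987. The repeat-spaced clusters have sharp peaks, among them 56.4% at 212 bp, where the others decline smoothly.

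Gene starts were found at part of the short clusters. Of 32851 RefSeq promoters, 4373 held at least 4 CCGG, and the spacing of 4306 of them occurred at exactly 1 place among the deposited positions, each time on the chromosome RefSeq names. Of the short clusters outside chromosome 18, 655 (17.4%) held such a promoter, for 716 genes, against 34.9% of the longer clusters. Promoters with fewer CCGG could not be placed, so these are shares with a placed promoter and not of clusters at genes. In 62 of the 655, promoters on both strands shared the cluster. Of 561 covered clusters with a promoter, 0 scored under 20 in either group, which by a floor of 3 counts allows a share of up to 0.535%. Of the 1456 covered clusters without one, 40 did in the Emerald-high fraction (2.75%) and 49 in the Emerald-negative fraction (3.37%). After leaving out repeat-spaced clusters and shared tags, 12 of 1303 did in the Emerald-high fraction (0.921%) and 19 in the Emerald-negative fraction (1.46%). The group difference was -0.68 (-0.72 to -0.65) with a promoter and -0.67 (-0.69 to -0.65) without, with overlapping intervals.

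The 762 promoters at short clusters had a median GC content of 68.0% and a median observed over expected CpG of 0.869. In those at longer clusters these were 72.0% and 0.918, and over all promoters 52.7% and 0.384. Promoters were searched for 4 motifs on both strands of the 300 bases. The core of a GC box, GGGCGG, was in 79.7% of promoters at short clusters, 85.4% at longer clusters and 35.7% of all. The CCAAT box was in 31.1% at short clusters, 25.3% at longer clusters and 37.4% of all. The TATA box, as TATAAA, was in 2.36% at short clusters, 2.54% at longer clusters and 13.6% of all. The core bound by ETS factors, CCGGAA, was in 44.6% at short clusters, 34.6% at longer clusters and 14.9% of all. That core itself contains CCGG. Placed promoters hold at least 4 CCGG by selection, with a median of 5 at short clusters against 1 over all promoters. The GC, CpG and motif values over all promoters are therefore no like comparison.

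Genes at short clusters were grouped by role in 8 lists drawn from the 716 genes, so the lists show what lies at short clusters and not what share of a pathway does. In every list, 0 clusters were called higher, where 0.17% of all covered clusters were, and the calls lower are to be read against 20.4% of all. DNA methylation and silencing had 5 covered genes and 1 called lower, with a median difference of -0.65, against -0.64 over all covered short clusters. Dnmt1, the maintenance methyltransferase, had 45 HpaII and 24 MspI tags in the Emerald-high fraction, against 115 HpaII and 29 MspI tags in the Emerald-negative fraction. Its scores of 80.2 in the Emerald-high and 83.9 in the Emerald-negative fraction did not differ detectably at this depth (difference -0.31, SE 0.46, Fisher exact adjusted p = 0.599). Uhrf1, which guides that enzyme to hemimethylated DNA, had 45 HpaII and 27 MspI tags in the Emerald-high fraction and 107 HpaII and 18 MspI tags in the Emerald-negative fraction, with scores of 77.9 in the Emerald-high and 89.1 in the Emerald-negative fraction (Fisher exact adjusted p = 0.0843). Cdca7, which recruits the remodeller Hells, and Tasor, a subunit of the silencing complex HUSH, had differences of -0.33 and -0.65 and were not called. Smarcad1, a chromatin remodeller, was called lower, with 76 HpaII and 42 MspI tags in the Emerald-high fraction, against 184 HpaII and 19 MspI tags in the Emerald-negative fraction (difference -1.61, SE 0.44, Fisher exact adjusted p = 0.00219). Its MspI share was itself higher in the Emerald-high fraction, by 1.09.

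Of the genes of growth and maintenance, replication and division had 13 covered clusters, a median difference of -0.57 and 1 called lower, that of Dck, the deoxycytidine kinase (scores 79.8 in the Emerald-high and 90.6 in the Emerald-negative fraction). The MspI share at Dck was itself higher in the Emerald-high fraction, by 0.95. Ncaph2, a condensin II subunit that shares its cluster with Lmf2, had the lowest Emerald-negative score of any covered listed gene, with 58.5 HpaII and 45.5 MspI tags in the Emerald-high fraction, against 136.5 HpaII and 59 MspI tags in the Emerald-negative fraction. Its scores were 72.0 in the Emerald-high and 73.5 in the Emerald-negative fraction, and it held shared tags. Genes of mitochondrial proteins had 28 covered clusters, a median difference of -0.70 and 5 called lower. The called clusters were those of Letm1, an inner membrane ion exchanger (difference -1.62), Cox20, an assembly factor of cytochrome oxidase (-1.54), Tk2, the mitochondrial thymidine kinase (-1.28), Ogdh, of the citric acid cycle (-1.28), and Phb2, a prohibitin (-1.26). Their MspI shares were higher in the Emerald-high fraction, by 0.92, 0.86, 0.64, 0.80 and 0.65 in that order. The cluster of Phb2 also holds the promoter of Emg1, a ribosome assembly methyltransferase. Hspd1 and Hspe1, the paired mitochondrial chaperonin genes, shared 1 cluster, with 108 HpaII and 32 MspI tags in the Emerald-high fraction, against 212 HpaII and 31 MspI tags in the Emerald-negative fraction. Its scores of 88.7 in the Emerald-high and 90.5 in the Emerald-negative fraction had a difference of -0.25 (SE 0.40). The proteasome list had 5 covered clusters and 0 called, with a median difference of -0.52 and a range of -0.61 to -0.28. Splicing and ribosome assembly had 19 covered, a median difference of -0.58 and 4 called lower, at Snrpe and Sf3b6 of the spliceosome, Urb1 of ribosome assembly and Emg1. MspI shares at these 4 were higher in the Emerald-high fraction, by 0.43, 1.16, 0.56 and 0.65 in that order.

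Genes of specialised cells had clusters that HpaII also cut. Developmental regulators had 18 covered clusters with median scores of 80.7 in the Emerald-high and 89.7 in the Emerald-negative fraction, with a median difference of -0.88, and 5 were called lower. Batf3, a transcription factor of dendritic cells, had the largest fall of any listed gene, with 25 HpaII and 21 MspI tags in the Emerald-high fraction, against 103 HpaII and 10 MspI tags in the Emerald-negative fraction. Its scores were 70.1 in the Emerald-high and 93.7 in the Emerald-negative fraction (difference -2.24, SE 0.62, Fisher exact adjusted p = 0.00295), and its MspI share was higher in the Emerald-high fraction by 0.99. Ripply2, a regulator of somite formation, had 99 HpaII and 62 MspI tags in the Emerald-high fraction, against 253 HpaII and 29 MspI tags in the Emerald-negative fraction (difference -1.65, SE 0.36). Isl1, a homeobox factor of motor neurons and heart (-1.55), Gdf10, a secreted factor of the TGF-beta family (-1.41), and Kdr, the VEGF receptor of endothelium (-1.01), were the others called lower. In the Emerald-high fraction the MspI share was higher by 1.06 at Ripply2, 0.99 at Isl1, 0.55 at Gdf10 and 0.30 at Kdr. Hoxd10, Twist2 and Prox1 were not called, with differences of -0.26, -0.40 and -0.62. Neuronal genes had 17 covered clusters, a median difference of -0.63 and 2 called lower, Adcy2, an adenylyl cyclase (-1.51), and Homer2, a postsynaptic scaffold (-1.24). Germ cell and meiosis genes had 6 covered clusters, a median difference of -0.51 and 1 called lower, Psmc3ip, a cofactor of meiotic recombination (-1.19). Others of that list, such as Tdrd7 of the germ granule and Ccna1, the germ cell cyclin, had differences of -0.59 and -0.89 and were not called. At Adcy2, Homer2 and Psmc3ip the MspI share was higher in the Emerald-high fraction, by 0.69, 0.27 and 0.66.

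The 20 to 80 range of Emerald-negative scores held 117 covered short clusters, of which 8 held a placed promoter. Besides that of Ncaph2 and Lmf2 these were the promoters of Cox11 and Stxbp4, Utp25, Nrxn3, Dync1i2, Rasgef1a, C77080 and Gm16254. At Nrxn3, a presynaptic adhesion molecule, tags were 37 HpaII and 15 MspI in the Emerald-high fraction, against 54 HpaII and 19 MspI in the Emerald-negative fraction, with scores of 84.7 in the Emerald-high and 78.0 in the Emerald-negative fraction (difference 0.55, SE 0.57, Fisher exact adjusted p = 0.507). At Cox11, an assembly factor of cytochrome oxidase, the scores were 87.1 in the Emerald-high and 79.9 in the Emerald-negative fraction (difference 0.65, SE 0.47), and tags were shared between sites. Neither was called.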

How the data were processed

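HELP tagging, which sequences tags next to cut CCGG, was done on HpaII-cut and MspI-cut DNA of Emerald-high and Emerald-negative cells, with 1 library each. The deposited files hold estimated counts of tags for every CCGG position, as a sum, which was used here, and as its 2 parts. The meaning of the parts and the aligner were not given in the sources used here. Counts were not scaled by the authors, per the file headers' totals, which match the sums to within 1 tag. Fractions of a tag stood at 1.67% to 1.94% of the sites of a library, and the 237 short clusters with such sites are said to hold shared tags. Positions are of mm9, per the submitters' processing notes.

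Tags were summed per cluster and scaled to library totals, with a pseudocount of 1 for the log2 values of single clusters. Poisson intervals and Clopper-Pearson binomial intervals are at 95%. Clusters with at least 10 tags in each MspI library were tested with Fisher's exact test, 2-sided, whose null odds were those of the library totals, with Benjamini-Hochberg adjustment over clusters of every length. It compares libraries and not conditions. On simulated tags with known changes, over 6353 clusters, the calls recovered 93.9% of 4-fold rises and 84.0% of 4-fold falls, 32.7% of 2-fold rises and 24.5% of 2-fold falls, and called 0.0812% of unchanged clusters. The simulated tags had Poisson noise alone and no common shift between the fractions. These rates therefore do not give the error of the calls in the data, which had both a shift and wider spread. Tools were matplotlib 3.10.9, scipy 1.17.1, numpy 2.4.6, pandas 2.3.3 and Python 3.11.15.

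No mm9 sequence was used and no coordinates were converted. A promoter was placed where the spacing of all its CCGG, at least 4, occurred at exactly 1 place among the deposited positions, on the named chromosome. Of 4373 such promoters 50 occurred at several places and 17 at none. Named clusters were the 5 called higher and the 5 called lower with the largest change, the 5 with most MspI tags, and the 5 lowest and 5 highest Emerald-negative scores, under the conditions given in the text, with the 5 commonest spacings. Chromosome 18 is left out of names and sequences. Members and lists were chosen with earlier results of these data known.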

Additional observations from a re-analysis of the deposited data

Results flagged for a closer look

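In short clusters the HpaII and the MspI library of the Emerald-high fraction stood on opposite sides of those of the Emerald-negative fraction, with log2 differences of -0.43 for HpaII and 0.24 for MspI, which give -0.67 for HpaII over MspI. The signs were opposite on all 19 autosomes. The difference between the enzymes was not tested across samples, since each has 1 library per group.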

How the results depend on the processing

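The group difference of short clusters (-0.67) kept its sign and its size within counting error in 10 settings. It was 0.048 when scaled to autosomal dense sites, which include the short clusters, -0.62 with dense set at 8 or more CCGG, -0.74 at 12 or more, -0.43 from HpaII alone and -0.64 as the median over clusters. Short minus longer clusters (0.061) was 0.029 at 12 or more CCGG, 0.040 from HpaII alone and 0.0045 for sites with 10 to 14 CCGG. In pooled level, short minus longer was -0.048 from whole tags, -1.32e-05 at 12 or more CCGG, -0.13 with a span limit of 300 bp and -0.085 for 10 to 14 CCGG in the Emerald-high fraction. In the Emerald-negative fraction it was -0.11, -0.029, -0.18 and -0.090 under the same settings. Median scores were 50.9 in the Emerald-high and 50.2 in the Emerald-negative fraction when scaled to dense sites, which sets the mean level near 50 by construction, 81.3 in the Emerald-high and 87.8 in the Emerald-negative fraction at 300 bp, and 88.3 in the Emerald-negative fraction with at least 20 MspI tags. Clusters called lower (331) were 0 when scaled to dense sites, 45 by HpaII alone, 197 of 1297 with at least 20 MspI tags and 211 after division by the MspI overdispersion, which was 1.22. Clusters called higher (5) were 14 by HpaII alone and 3 after that division. For the limit of 20 MspI tags and for the division, the share of all covered clusters called was not computed. Those counts therefore do not compare short clusters with the rest. Leaving out repeat-spaced clusters, chosen after seeing the data, moved no value beyond the interval of the main value and no count by over 1.5 times. The cause of the other changes was not tested. Depth limits single clusters: 1798 of the short clusters lacked 10 tags in an MspI library. No paired analysis was possible because each group has 1 library per enzyme.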

Other observations

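On the X chromosome, which the rule leaves out, 173 clusters spanned under 500 bp and 25 were covered. Their pooled level was 1.60 in the Emerald-high and 2.22 in the Emerald-negative fraction, a difference of -0.62 (95% Poisson interval -0.74 to -0.50). Of the 25, 3 scored under 20 in the Emerald-high fraction and 2 in the Emerald-negative fraction.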
